A study of Homo sapiens with 6 samples.

Results

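Genes of the cellular defence against oxidants, 10 in number, were followed in 5637 cells, an established human bladder carcinoma line. They were chosen by name: the transcription factor gene NFE2L2 (NRF2) and its inhibitor KEAP1, the glutathione synthesis genes GCLC and GCLM, the thioredoxin-linked genes TXNRD1 and SRXN1, the stress enzymes NQO1 and HMOX1, and the superoxide dismutases SOD1 and SOD2. All 10 were among the 23024 genes listed and among the 11152 genes tested, those averaging 1 FPKM or more across the libraries (the deposited unit, fragments corrected for library size and gene length). The series asked what lowering RAD51C, a gene of DNA repair by homologous recombination, does to expression in this line. The 6 libraries come from transfected cells: 3 named sh-RAD51C, labelled as a RAD51C knockdown by short hairpin RNA, and 3 named NC, labelled as wild type. The labels do not spell out NC, give the hairpin sequence, or state whether each library is a culture or clone of its own, so the spread that p-values are set against is only that among these libraries and may be technical.

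NRF2 is a transcription factor that KEAP1 holds in the cytoplasm and marks for degradation by the proteasome. When oxidants or electrophiles modify KEAP1, NRF2 accumulates, pairs with small MAF proteins and switches on genes carrying an antioxidant response element. Its targets include the enzymes that make glutathione and reduce thioredoxin, and the pathway is often active in carcinomas. Superoxide dismutases convert superoxide to hydrogen peroxide; SOD1 works mainly in the cytosol and SOD2 in the mitochondrial matrix. SOD2 is also a known target gene of NF-kB signalling.

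The libraries had similar inferred depths, 37104318 to 38079825 reads in sh-RAD51C and 36068282 to 37560184 reads in NC. RAD51C stood at 23% of the NC mean in the sh-RAD51C libraries, with no overlap between groups. All 10 epithelial markers examined averaged at least 1 FPKM over the 6 libraries. KRT13 did so only through NC, at 0.211 FPKM in sh-RAD51C and 4.33 FPKM in NC. KRT7, KRT8, KRT18 and EPCAM, 4 of the 10, were called higher. KRT5, KRT17, KRT19, CDH1 and KRT13, 5 of the 10, were called lower. KRT5 averaged 301 FPKM in sh-RAD51C and 686 FPKM in NC, and KRT7 averaged 685 FPKM in sh-RAD51C and 407 FPKM in NC. The sum of the 10 was 3110 to 3230 FPKM in sh-RAD51C and 3590 to 3660 FPKM in NC. Averages of COL1A2, which marks fibroblasts, and of PTPRC, which marks leukocytes, were at or near 0 FPKM in both groups. Summed fibroblast markers held 58.3 to 60.4 FPKM in sh-RAD51C and 72.6 to 73.5 FPKM in NC. Of these 11 genes, 4 averaged at least 1 FPKM, of which 1 was called higher and 2 lower. THY1, called higher, averaged 5.52 FPKM in sh-RAD51C and 4.56 FPKM in NC. COL1A1, called lower, averaged 6.83 FPKM in sh-RAD51C and 9.94 FPKM in NC. Most of the sum was FBLN1, called lower, at 44.4 FPKM in sh-RAD51C and 55.9 FPKM in NC. Summed blood cell markers held 90.1 to 95.1 FPKM in sh-RAD51C and 96.1 to 104 FPKM in NC. Of these 7 genes, 3 averaged at least 1 FPKM, of which 1 was called higher and 2 lower. CD68, called higher, averaged 2.24 FPKM in sh-RAD51C and 1.72 FPKM in NC. CD14, called lower, averaged 0.573 FPKM in sh-RAD51C and 1.57 FPKM in NC. Most of the sum was LAPTM5, called lower, at 89.5 FPKM in sh-RAD51C and 97.7 FPKM in NC. Of 11 endothelial markers only ENG averaged at least 1 FPKM. The endothelial sum was 12.6 to 13.4 FPKM in sh-RAD51C and 9.82 to 11.8 FPKM in NC. The part of these markers in the results was not tested.

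The 10 genes did not move as a block. TXNRD1, SRXN1, GCLM and SOD1 were called higher in sh-RAD51C, SOD2 and NFE2L2 were called lower, and KEAP1, GCLC, NQO1 and HMOX1 were not called (limma on log2(FPKM + 1), Benjamini-Hochberg adjusted p under 0.05 over all genes tested). Being called was common in this comparison, 49.4% of all genes tested, with 23.2% called higher and 26.2% called lower, so the count of 6 among 10 is near that background. The groups did not overlap in the same 6 genes, against 58.4% of all genes tested. The median log2 fold change of the 10 genes was 0, and that of all genes tested was -0.01. In size their median change was 0.24 on the log2 scale, against 0.15 for all genes tested.

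**Figure D1:**
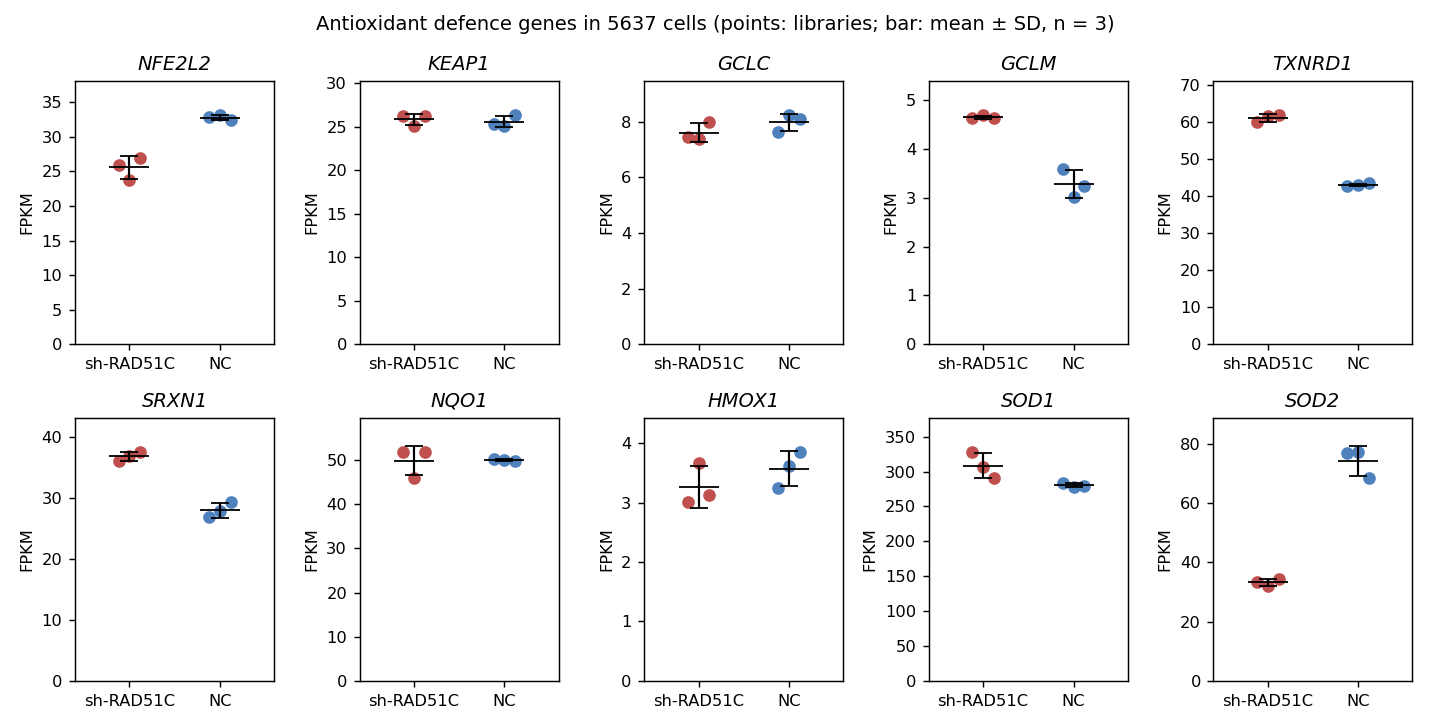
FPKM of the 10 genes in each library, sh-RAD51C in red and NC in blue, with the group mean and SD (n = 3) in black and each axis starting at 0. SOD2 stood between 31.9 and 34.5 FPKM in sh-RAD51C and between 68.3 and 77.2 FPKM in NC, the widest gap among the 10 genes.

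By level, measured as FPKM and thus per length, SOD1 was the most abundant of the 10 in both groups, at 309 FPKM in sh-RAD51C and 281 FPKM in NC on average. In sh-RAD51C it was followed by TXNRD1, NQO1, SRXN1 and SOD2, then by KEAP1 and NFE2L2, whose libraries overlapped, and by GCLC, GCLM and HMOX1. In NC the order was SOD1, SOD2, NQO1, TXNRD1, NFE2L2, SRXN1, KEAP1 and GCLC, with HMOX1 and GCLM last and overlapping. SOD2 was thus in the fifth place in sh-RAD51C and in the second place in NC. These places depend on the gene length the authors divided by, which was inferred as 17592 bases for SOD2 and 895 bases for SOD1.

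Among the regulators, NFE2L2 fell while KEAP1 was not called. NFE2L2 (ENSG00000116044.15, chromosome 2 from 177227595 to 177392697, minus strand, GRCh38) held 25.9, 23.8 and 27 FPKM in the sh-RAD51C libraries 1, 2 and 3, against 32.8, 33.1 and 32.4 FPKM in the NC libraries 1, 2 and 3. Every sh-RAD51C library lay below every NC library, as was the case for 30.8% of all genes tested. The log2 fold change was -0.35 ± 0.047 (SE; limma adjusted p = 0.000114), with a mean at 78% of the NC mean, from 2803 to 3261 inferred reads in sh-RAD51C and 3757 to 3954 in NC. Other gene records in GENCODE release 29 share 20.9% of its exonic bases.

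KEAP1 (ENSG00000079999.13, chromosome 19 from 10486120 to 10503741, minus strand) held 26.2, 25.1 and 26.2 FPKM in sh-RAD51C and 25.3, 25.1 and 26.3 FPKM in NC. The groups overlapped, and the 95% interval of the log2 fold change ran from -0.07 to 0.1 (limma adjusted p = 0.803). The linear ratio of NFE2L2 to KEAP1 within a library was 0.991, 0.948 and 1.03 in sh-RAD51C and 1.3, 1.32 and 1.23 in NC. The mean log2 ratio was -0.02 ± 0.06 in sh-RAD51C and 0.36 ± 0.0518 in NC (SD, n = 3 each), a difference of -0.37. By exact permutation of the libraries the two-sided p was 0.1, the smallest that 3 against 3 allow, and 0.1 after Benjamini-Hochberg adjustment over the 3 ratios tested in this way.

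Of 16 tested genes for regulators and partners of NRF2, 7 were called higher and 1, NFE2L2 itself, lower (50% called, all genes 49.4%). Their median log2 fold change was 0.08. All 3 small MAF genes, whose products are the DNA-binding partners of NRF2, were called higher. MAFK averaged 8.45 ± 0.488 FPKM in sh-RAD51C and 5.88 ± 0.227 FPKM in NC, and MAFF averaged 11.2 ± 0.327 FPKM in sh-RAD51C and 8.85 ± 0.263 FPKM in NC (SD, n = 3 each). The log2 fold change of MAFG was 0.31. PGAM5, a mitochondrial phosphatase that binds KEAP1, rose to 32.5 ± 0.747 FPKM in sh-RAD51C, against 22.8 ± 1.14 FPKM in NC, and NFE2L3, a factor related to NRF2, rose by 0.29 on the log2 scale. BACH1, a repressor of antioxidant response elements, and CUL3, the ubiquitin ligase scaffold that works with KEAP1, were not called (log2 fold changes of -0.1 and 0.1, limma adjusted p = 0.0829 and 0.0831).

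Of the enzyme that makes the first and limiting step of glutathione synthesis, the modifier subunit rose and the catalytic subunit was not called. GCLM, the modifier subunit (ENSG00000023909.9, chromosome 1 from 93885205 to 93909456, minus strand), held 4.63, 4.69 and 4.63 FPKM in the sh-RAD51C libraries 1, 2 and 3, against 3.59, 3.02 and 3.24 FPKM in the NC libraries 1, 2 and 3. The sh-RAD51C libraries were nearly identical and all above NC, as in 27.6% of all genes tested. The log2 fold change was 0.4 ± 0.0632 (SE; limma adjusted p = 0.000345), from 1111 to 1127 inferred reads per library in sh-RAD51C and 725 to 828 in NC.

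GCLC, the catalytic subunit (ENSG00000001084.12, chromosome 6 from 53497341 to 53616970, minus strand), held 7.46, 7.38 and 8 FPKM in sh-RAD51C and 7.64, 8.23 and 8.09 FPKM in NC. The groups overlapped, and the 95% interval of the log2 fold change ran from -0.18 to 0.05 (limma adjusted p = 0.358). The linear ratio of GCLC to GCLM was therefore lower in each sh-RAD51C library, at 1.61, 1.57 and 1.73, than in any NC library, at 2.12, 2.72 and 2.5. The mean log2 ratio differed by -0.57 (0.71 ± 0.0691 in sh-RAD51C and 1.28 ± 0.182 in NC, SD, n = 3 each; exact two-sided permutation p = 0.1, adjusted 0.1).

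Letters of the antioxidant response element were looked for near the starts of these genes, because GCLM and TXNRD1 rose while NFE2L2 fell. RefSeq windows (GRCh38.p14) of 300 bases, from 250 before to 50 after each annotated start, were at hand for 8 of the 10 genes, 14 windows in all. The core was spelled TGACNNNGC and searched on both strands. KEAP1, GCLM and TXNRD1 held 6 matches, none overlapping an AP-1 site spelled TGANTCA. The matches are shown 5′ to 3′ on the strand where they read as spelled, with the core in capitals and 10 bases on each side.
GCLM, chr1:93909446-93909474, plus strand: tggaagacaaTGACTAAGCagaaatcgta
KEAP1, chr19:10502784-10502812, plus strand: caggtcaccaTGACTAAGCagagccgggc
KEAP1, chr19:10502807-10502835, minus strand: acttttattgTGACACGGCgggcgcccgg
TXNRD1, chr12:104215670-104215698, plus strand: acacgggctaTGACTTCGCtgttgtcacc
TXNRD1, chr12:104215761-104215789, minus strand: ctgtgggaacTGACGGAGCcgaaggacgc
TXNRD1, chr12:104286920-104286948, minus strand: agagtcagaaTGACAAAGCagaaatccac
The core of GCLM and the first core of KEAP1 have the same letters. GCLM was called higher and KEAP1 was not called, and whether NRF2 binds either core was not tested. The core occurred in 13.3% of all 35116 windows, and in at least 1 window of 19.4% of the 9031 tested genes that had one. NFE2L2, GCLC, SRXN1, NQO1 and SOD2 had no match in their windows, which says only that these letters are not there.

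Of 12 tested genes for making and importing glutathione, GCLC and GCLM included, 6 were called higher and 2 lower (66.7% called, all genes 49.4%). Their median log2 fold change was 0.1, and at a mean of at least 5 FPKM, which leaves 7 genes, 3 were higher and 1 lower. SLC7A11, the cystine importer that feeds glutathione synthesis, held 4.81, 5.09 and 6 FPKM in sh-RAD51C and 3.61, 3.38 and 3.65 FPKM in NC, a log2 fold change of 0.47 (limma adjusted p = 0.000338). CTH, which makes cysteine by transsulfuration, rose to 2.28 ± 0.21 FPKM in sh-RAD51C, against 1.33 ± 0.0763 FPKM in NC (SD, n = 3 each). LAP3, an aminopeptidase that can split cysteinylglycine, rose 1.26-fold, while GGT7, of the gamma-glutamyltransferase family, fell to 1.61 ± 0.0763 FPKM in sh-RAD51C, against 2.56 ± 0.0497 FPKM in NC. GSS, which completes the tripeptide, was at 31.1 FPKM in sh-RAD51C and 31 FPKM in NC and was not called (limma adjusted p = 0.938).

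Genes that use or recycle glutathione were divided, 8 called higher and 10 lower of 29 (62.1% called, all genes 49.4%). With genes under 1 FPKM kept in the fit, 7 were higher and 6 lower. At a mean of at least 5 FPKM, which leaves 21 genes, 9 were higher and 5 lower. The 4 with the smallest p were all lower, and 3 of them are glutathione transferases or relatives. GSTA4, which conjugates the lipid peroxidation product 4-hydroxynonenal, held 1.3, 1.19 and 1.03 FPKM in sh-RAD51C and 3.38, 3.22 and 2.85 FPKM in NC (log2 fold change -0.93, limma adjusted p = 2.36e-06). On the log2 scale MGST2 fell by 0.57, GSTK1 by 0.28 and the mitochondrial persulfide dioxygenase ETHE1 by 0.44. For transferases with near-identical paralogs it is uncertain how reads were assigned. GSR, which regenerates reduced glutathione, had a log2 fold change of -0.21, and GPX1, a glutathione peroxidase, one of 0.26 (limma adjusted p = 0.00545 and 0.000848).

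Both genes of the thioredoxin branch rose. TXNRD1, the cytosolic thioredoxin reductase (ENSG00000198431.15, chromosome 12 from 104215779 to 104350305, plus strand), held 59.9, 61.6 and 61.8 FPKM in sh-RAD51C, against 42.7, 42.9 and 43.4 FPKM in NC. The spread within each group was small beside the gap between them. The log2 fold change was 0.5 ± 0.0335 (SE; limma adjusted p = 6.41e-07). On this log2(FPKM + 1) scale, which understates changes of low genes, 3.61% of all genes tested rose at least as much. Inferred reads numbered 9713, 9740 and 10001 in sh-RAD51C and 6554, 6863 and 6947 in NC.

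SRXN1, the sulfiredoxin that restores over-oxidized peroxiredoxins (ENSG00000271303.1, chromosome 20 from 646615 to 653370, minus strand), held 36.1, 36.8 and 37.5 FPKM in sh-RAD51C, against 26.8, 27.8 and 29.3 FPKM in NC. Every sh-RAD51C library lay above every NC library, and the log2 fold change was 0.38 ± 0.0416 (SE; limma adjusted p = 2.23e-05). In GENCODE release 29, 85% of the exonic bases of SRXN1 also belong to a second protein-coding gene record on the same strand, so its reads cannot be assigned to SRXN1 alone with certainty.

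The thioredoxin and peroxiredoxin list had 21 genes tested, TXNRD1 and SRXN1 included, of which 8 rose and 3 fell (52.4% called, all genes 49.4%). The median log2 fold change was 0.08. Mitochondrial peroxiredoxins went in opposite directions. PRDX3 held 97, 93.6 and 89.3 FPKM in sh-RAD51C and 76.3, 76.6 and 77.5 FPKM in NC (log2 fold change 0.28, limma adjusted p = 0.000117). PRDX5, which is also found in peroxisomes and the cytosol, held 102, 90 and 90.4 FPKM in sh-RAD51C and 154, 156 and 145 FPKM in NC (log2 fold change -0.68, limma adjusted p = 1.6e-06). In both genes the groups did not overlap. TXNIP, which binds and inhibits thioredoxin, fell to 50.4 ± 0.455 FPKM in sh-RAD51C, against 62.7 ± 1.38 FPKM in NC, and NXN, or nucleoredoxin, rose 1.24-fold. Thioredoxin itself, TXN, was at 571 FPKM in sh-RAD51C and 529 FPKM in NC and was not called (limma adjusted p = 0.0768), and neither was the mitochondrial reductase TXNRD2 (log2 fold change -0.05, adjusted p = 0.556).

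**Figure D2:**
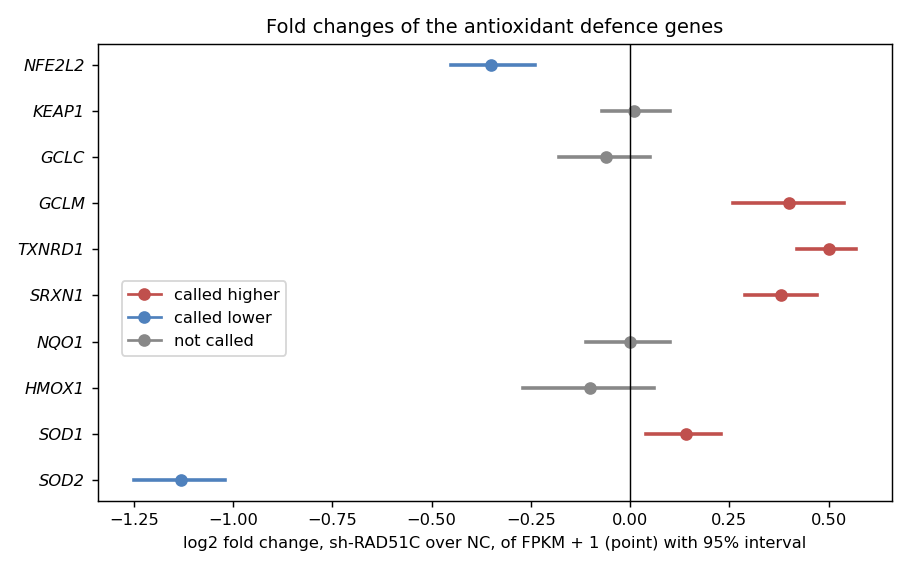
Log2 fold change of FPKM + 1 for the 10 genes, sh-RAD51C over NC, with the 95% interval from limma; red and blue mark genes called higher and lower, grey those not called. TXNRD1 at 0.5 and SOD2 at -1.13 lie at the ends, and the intervals of KEAP1, GCLC, NQO1 and HMOX1 include 0. By mean FPKM, TXNRD1 and GCLM each rose 1.42-fold, because this scale understates changes of low genes such as GCLM.

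Both of the stress enzymes most used as readouts of NRF2 activity were not called. NQO1, a quinone reductase (ENSG00000181019.12, chromosome 16 from 69706996 to 69726951, minus strand), held 51.8, 46 and 51.8 FPKM in sh-RAD51C and 50.3, 49.9 and 49.8 FPKM in NC. The sh-RAD51C libraries lay on both sides of NC, and the 95% interval of the log2 fold change ran from -0.11 to 0.1 (limma adjusted p = 0.943). An antisense gene shares 17.7% of the exonic bases of NQO1. HMOX1, the inducible haem oxygenase (ENSG00000100292.16, chromosome 22 from 35380361 to 35394214, plus strand), held 3.01, 3.66 and 3.12 FPKM in sh-RAD51C and 3.25, 3.62 and 3.85 FPKM in NC. The groups overlapped, with an interval from -0.27 to 0.06 (limma adjusted p = 0.287) on 178 to 211 inferred reads in sh-RAD51C and 182 to 225 in NC. These intervals give the changes compatible with the data and are not limits of detection, so a small change in either gene may have been missed.

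HMOX2, the constitutive haem oxygenase, did rise, to 15.8 ± 0.434 FPKM in sh-RAD51C against 10.7 ± 0.574 FPKM in NC (SD, n = 3 each; log2 fold change 0.52, limma adjusted p = 6.93e-06). It was the only gene called higher among 15 tested for haem breakdown and iron storage, where 6 were lower. Of this list 46.7% was called, near the 49.4% of all genes tested, and its median log2 fold change was -0.1. BLVRB, which reduces biliverdin and flavins, held 37.1, 35 and 28.4 FPKM in sh-RAD51C and 50.6, 48.3 and 47.2 FPKM in NC. The iron importer SLC11A2 fell to 11.1 ± 0.433 FPKM in sh-RAD51C, against 15.8 ± 0.157 FPKM in NC, and POR, the electron donor of cytochrome P450 and haem oxygenase, fell by 0.31 on the log2 scale. The ferritin genes FTH1 and FTL, at 2380 and 688 FPKM in sh-RAD51C and 2600 and 681 FPKM in NC, were not called (limma adjusted p = 0.146 and 0.876).

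Of 17 further genes listed as NRF2 targets, NQO1 included, 4 were called higher and 7 lower (64.7% called, all genes 49.4%). Only 2 were higher without NC replicate 1 or 2, and the median log2 fold change was -0.13. At a mean of at least 5 FPKM, which leaves 12 genes, 4 were higher and 5 lower, and the median was 0.04. The genes of this list named next are the 4 with the smallest p, all called lower. The aldo-keto reductase AKR1C3 held 5.41, 5.38 and 5.24 FPKM in sh-RAD51C and 12.9, 11.4 and 10.6 FPKM in NC. Its paralog AKR1C2 held 0.211 ± 0.105 FPKM in sh-RAD51C and 1.97 ± 0.114 FPKM in NC. How reads were divided over related genes of this family is uncertain. PIR, an iron-binding nuclear protein, fell to 2.34 ± 0.234 FPKM in sh-RAD51C, against 5.46 ± 0.0711 FPKM in NC, and the transporter ABCB6 fell by 0.44 on the log2 scale. The NADPH supply list had 6 higher and 4 lower of 16 (62.5% called, all genes 49.4%). Its smallest p was that of IDH1, the cytosolic isocitrate dehydrogenase, which fell to 26.5 ± 1.85 FPKM in sh-RAD51C, against 39.8 ± 1.14 FPKM in NC, whereas the folate cycle enzymes MTHFD1 and MTHFD2 rose 1.16-fold and 1.19-fold.

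The superoxide dismutases moved in opposite directions and by very different amounts. SOD2 (ENSG00000112096.17, chromosome 6 from 159669057 to 159745186, minus strand) held 33.2, 31.9 and 34.5 FPKM in the sh-RAD51C libraries 1, 2 and 3, against 76.8, 77.2 and 68.3 FPKM in the NC libraries 1, 2 and 3. The highest sh-RAD51C library stood far below the lowest NC library. The log2 fold change was -1.13 ± 0.0508 (SE; limma adjusted p = 3.35e-08), and the mean was 2.23-fold lower. On this log2(FPKM + 1) scale, which understates changes of low genes, 1.08% of all genes tested changed at least as much in either direction. In RNA from whole cultures, fewer cells that make a transcript and less of it per cell cannot be told apart.

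SOD2 rested on 20824 to 23067 inferred reads in sh-RAD51C and 45124 to 50993 in NC. GENCODE release 29 gives a second SOD2 record at this locus, and exons of 1 or both records overlap WTAP and ACAT2 on the opposite strand. WTAP had 5951 inferred reads in sh-RAD51C 1 and 6386 in NC 1, and ACAT2 had 3713 in sh-RAD51C 1 and 4096 in NC 1. How reads were assigned between overlapping genes was not tested. The log2 fold changes of WTAP and ACAT2 were each -0.22.

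SOD1 (ENSG00000142168.14, chromosome 21 from 31659622 to 31668931, plus strand) held 328, 307 and 291 FPKM in sh-RAD51C, against 284, 278 and 280 FPKM in NC. The sh-RAD51C libraries were more spread and all above NC. The log2 fold change of 0.14 ± 0.044 (SE) passed the test (limma adjusted p = 0.0246), with a 95% interval from 0.04 to 0.23. It was no longer called without sh-RAD51C replicate 2 (adjusted p = 0.0568) and without NC replicates 1, 2 or 3 (adjusted p = 0.0545, 0.0845 and 0.0615), in a range from 0.000616 to 0.0923 over 17 refits.

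The linear ratio of SOD2 to SOD1 was 0.101, 0.104 and 0.118 in sh-RAD51C and 0.27, 0.277 and 0.244 in NC. The mean log2 ratio was -3.22 ± 0.121 in sh-RAD51C and -1.92 ± 0.0983 in NC (SD, n = 3 each), a difference of -1.29 (exact two-sided permutation p = 0.1, adjusted 0.1). The absolute ratio depends on the lengths used for the FPKM, whereas its difference between groups does not.

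**Figure D3:**
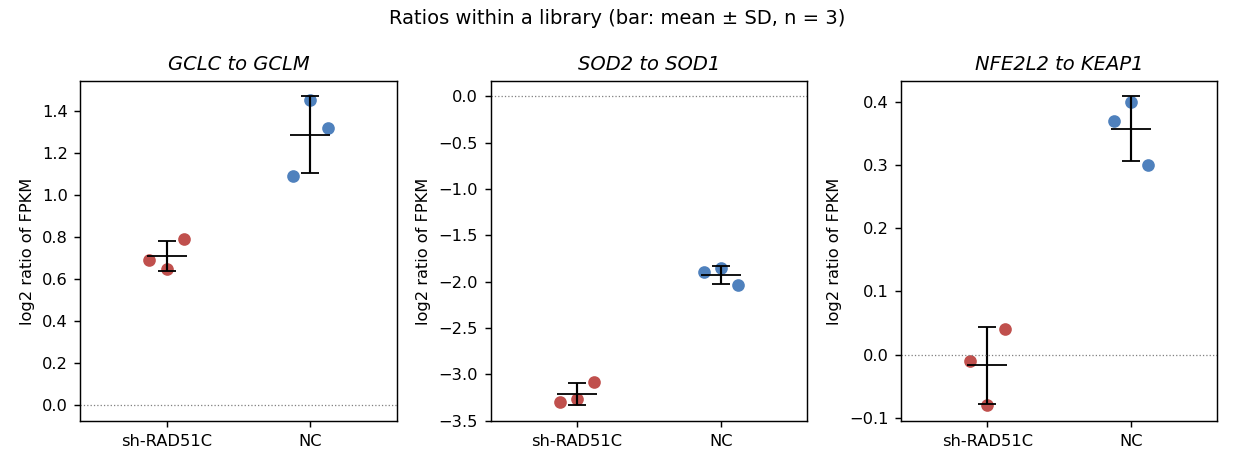
Log2 ratios of FPKM within each library for GCLC to GCLM, SOD2 to SOD1 and NFE2L2 to KEAP1, sh-RAD51C in red and NC in blue, with the mean and SD (n = 3) in black and a dotted line at equal FPKM. In each panel all 3 sh-RAD51C libraries lie below all 3 NC libraries, with differences of means of -0.57, -1.29 and -0.37; axes differ in range and do not start at 0.

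Around the dismutases, 2 of 8 tested genes for superoxide and peroxide removal were higher and 4 lower, SOD1 and SOD2 included. This is 75% called, against 49.4% of all genes tested, and the median log2 fold change was -0.09. The count of higher genes was 1 wherever SOD1 lost its call. CCS, the copper chaperone that loads SOD1, held 13.6, 13.2 and 12.7 FPKM in sh-RAD51C and 15.4, 16 and 16.2 FPKM in NC, the opposite direction to SOD1 (log2 fold change -0.25, limma adjusted p = 0.000758). ATOX1, the copper chaperone of the secretory pathway, rose 1.19-fold, and the copper importer SLC31A1 had a log2 fold change of -0.17 (limma adjusted p = 0.0184), a call lost without NC replicate 1 (0.055), on rescaling to TPM (0.0588) and without the filter on low values (0.0782). NNT, which makes NADPH in the mitochondrial matrix, fell to 5.91 ± 0.32 FPKM in sh-RAD51C, against 7.75 ± 0.372 FPKM in NC. Catalase, CAT, was at 38.8 FPKM in sh-RAD51C and 39 FPKM in NC and was not called (limma adjusted p = 0.868).

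Of 16 genes for enzymes that produce superoxide, 4 averaged at least 1 FPKM and were tested. DUOX1, a dual oxidase, held 0.948 ± 0.128 FPKM in sh-RAD51C and 1.9 ± 0.0445 FPKM in NC, and CYBA, the p22phox subunit of NADPH oxidases, fell by 0.22 on the log2 scale. XDH, xanthine dehydrogenase, rose 1.22-fold, and NOX4 was not called (log2 fold change 0.21, limma adjusted p = 0.0865). Over all 9 lists, 136 different genes were tested, of which 43 were higher and 38 lower; this is 59.6% called, against 49.4% for all genes tested.

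**Figure D4:**
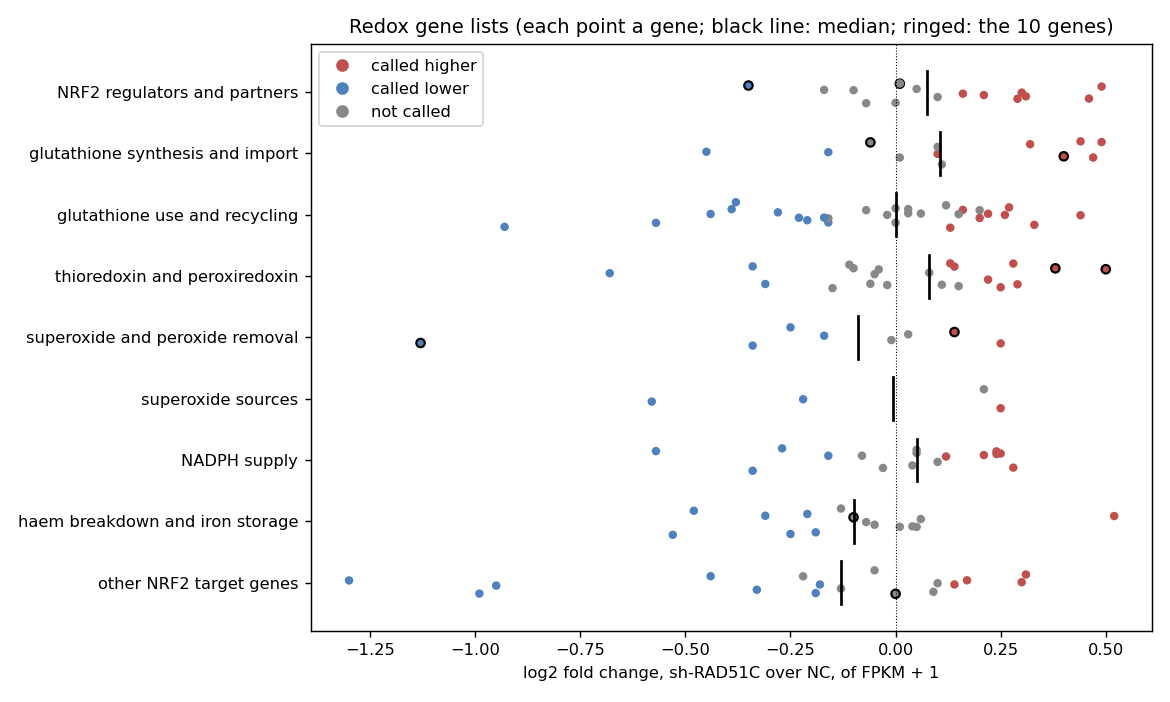
Log2 fold change of FPKM + 1, sh-RAD51C over NC, of every tested gene on the 9 redox lists; red and blue mark genes called higher and lower, black lines the list medians and black rings the 10 genes. List medians lie between -0.13 and 0.1, and SOD2 is the farthest of the ringed genes from 0.

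By the profile over the 6 libraries, the genes most like SOD2 among 7375 others with a mean of at least 5 FPKM were DENND2B, C1R and DDIT4. Their root mean square differences from SOD2 were 0.0439, 0.0513 and 0.0557 on the log2 scale, each gene centred on its own mean. Among those most like NFE2L2 were MEIS2 and CNOT8, at 0.02 and 0.0237. With 3 libraries in each of 2 groups, any gene with a like difference between the groups ranks high on this measure.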

How the data were processed

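RNA sequencing of 6 libraries of 5637 cells was deposited as FPKM per gene symbol, calculated by the authors; per the labels' protocols RNA was taken with TRIzol and libraries were made with the VAHTS Universal V6 kit. The submitters' processing notes name hg38, R 3.2.0 and DESeq2, without their roles. For the aligner, counter, strand and annotation the sources used here give nothing, so overlapping and antisense genes are uncertain.

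Genes averaging 1 FPKM or more were kept. Groups came from the titles. log2(FPKM + 1) values were fitted with limma 3.58.1 (R 4.3.3), empirical Bayes with trend and no covariate, with Benjamini-Hochberg adjustment over 11152 genes and calls at an adjusted p under 0.05. The pseudocount of 1 understates changes of low genes. Ratios were compared with exact two-sided permutation tests (scipy 1.17.1). Whole reads were inferred from the FPKM steps (within 0.001 reads for 100% of genes tested); they describe depth and serve 1 added alternative. In a test of this step on simulated data, 99.2% of 1000 gene lengths were returned. Reads of libraries of 1 group differed beyond counting error (chi-square of 3.69 to 14.31 for each degree of freedom), so none was counted as a repeat.

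The limma fit was also run on simulated data of 11152 genes. It called 10% of 50 genes changed 1.1-fold, 78% of 50 changed 1.2-fold and all changed 1.5-fold or 2-fold. Of 10952 unchanged genes it called 14. The simulated spread beyond counting error was set the same for every gene. Far fewer genes were changed than the 49.4% called in the real data. These shares thus do not give the detection rates of the real comparison. The 10 genes, the 9 lists and the marker lists were chosen with earlier results of these data known. The genes named are the 10 genes, RAD51C and up to 4 further genes per list with the smallest p, plus the 3 genes closest in profile to SOD2 and to NFE2L2, of which 1 is not reported here; MAFG, BACH1, CUL3, GSS, GSR, GPX1, TXN, TXNRD2, FTH1, FTL, CAT, the marker genes and the neighbours of SOD2 were picked with their values in view. Gene positions and shares of exonic bases come from GENCODE release 29. Its gene models need not be those behind the FPKM. NFE2L2, for example, has 5979 exonic bases there, against an inferred length of 3180 bases.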

Additional observations from a re-analysis of the deposited data

How the results depend on the processing

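Results were recomputed with another pseudocount, 2 other filters, 3 rescalings, 2 other variance models, a replicate block, a threshold of 0.01 and the omission of each library, and, chosen after seeing the data, with limma's voom on inferred reads and without length and GC trends. Directions and calls of NFE2L2, GCLM, TXNRD1, SRXN1 and SOD2 were the same in every one of these that kept the gene, and KEAP1, GCLC, NQO1 and HMOX1 were called in none. SOD2 ranged from -1.19 to -1.08, NFE2L2 from -0.39 to -0.3 and TXNRD1 from 0.46 to 0.52 (log2). SOD1 was also not called without the filter (limma adjusted p = 0.0923), without the trend (0.0582) and at the 0.01 threshold. Between 3 and 4 of the 10 genes were called higher and 2 lower throughout. Genes called lower over the whole table numbered 1859 at a mean of at least 5 FPKM, against 2922 in the main fit. Genes called higher numbered 2088, against 2589, so higher calls outnumbered lower ones at that filter. Fewer genes were tested there, and the cause of the uneven drop was not tested. Of the 34 called genes named from the lists by smallest p, which leaves out the 10 genes themselves, SLC31A1 lost its call in some of these and the others in none; MAFG, GSR and GPX1 were not followed in this way. The median of the further NRF2 targets ranged from -0.17 to 0.04. Correlations of deviations were 0.19, 0.026 and 0.091 for equal replicate numbers, and between -0.167 and 0.11 for unequal ones. Whether the replicate numbers pair the libraries was not settled. With the replicate block 2601 genes were higher and 2968 lower, with 4 and 2 of the 10 genes. Among the 10 genes HMOX1 had the fewest inferred reads, 178 in its lowest library.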
